A study of Arabidopsis thaliana with 9 samples.

Results

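AT2G20142 and AT1G66090 are Arabidopsis thaliana genes that encode proteins with a TIR (Toll/interleukin-1 receptor) domain. They were taken as the genes with a probe set annotated to that gene alone, which gave 2 probe sets, 1 for each gene, out of 28501 probe sets and 16411 genes with a probe set of 1 gene. They were chosen with their levels in these genotypes already known, so their levels and differences are given below as a description without a test. The deposited values come from 9 single-colour Affymetrix arrays, 3 each for ssrp1-2, spt16-1 and Col-0. All 3 genotypes share the Col-0 background. They were sampled as pooled aerial parts of plants 10 days after sowing that had grown on MS medium plates at a light level of 100 µmol, and 200 ng of total RNA was labelled per array. The ssrp1-2 and spt16-1 alleles affect SSRP1 and SPT16, the subunits of the histone chaperone FACT. Each subunit is represented by 1 allele whose lesion the labels do not describe, and the question is which transcripts are altered in each mutant. The arrays are labelled as biological replicates. No label states that the pools were sown separately, and p-values therefore cover only pool-to-pool spread, which may be technical.

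TIR domains act as enzymes that cleave NAD+ and produce small signalling molecules. In plants they occur in intracellular immune receptors of the TIR-NBS-LRR class and in shorter proteins that lack some of those parts. Their products are sensed by EDS1 paired with PAD4 or SAG101, which then engage helper receptors, and the pathway leads to salicylic acid signalling, defence gene expression and local cell death.

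Array medians lay between 4.95 and 4.98 on the log2 scale, and Pearson r between arrays was 0.992 to 0.994 in the 9 pairs within a genotype and 0.989 to 0.992 in the 27 pairs between genotypes. SSRP1 and SPT16 have no named probe set in the annotation used here, so the genotype labels were not checked by the level of the targeted genes. Of the 7 leaf markers listed, 0 had a named probe set, so the tissue label could not be checked with them. The root marker PYK10 averaged 10.84 ± 0.09 in ssrp1-2, 11.31 ± 0.25 in spt16-1 and 11.21 ± 0.08 in Col-0 (SD, n = 3 each), and it passed in none of the 3 comparisons. These levels are far above the array medians although the samples are labelled as aerial parts, and the reason was not tested. The other measured root marker, EXPA7, and the 1 measured guard cell marker, FMA, also passed in none. Of the 2 root markers, 1 had an unadjusted p under 0.05 in ssrp1-2 against Col-0, 0 in spt16-1 against Col-0 and 1 in ssrp1-2 against spt16-1. Over all 28501 probe sets, 4108, 3599 and 3427 had such a p. The lowest root marker difference was -0.38 in ssrp1-2 against Col-0 and -0.47 in ssrp1-2 against spt16-1. A difference in tissue composition was not tested.

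AT2G20142 had log2 expression values of 6.10, 6.29 and 6.13 on the ssrp1-2 arrays, 4.99, 5.20 and 4.99 on the spt16-1 arrays, and 3.80, 3.84 and 3.74 on the Col-0 arrays. The genotypes did not overlap, and the order was ssrp1-2 highest, spt16-1 between, Col-0 lowest. The means were 6.18 ± 0.10 in ssrp1-2, 5.06 ± 0.12 in spt16-1 and 3.79 ± 0.05 in Col-0 (SD, n = 3 each). The difference of ssrp1-2 minus Col-0 was 2.39 on the log2 scale, a 5.23-fold higher level, and that of spt16-1 minus Col-0 was 1.27, a 2.42-fold higher level. The spt16-1 difference was 53.3% of the ssrp1-2 difference on the log2 scale, and both were measured against the same 3 Col-0 arrays. Between the mutants, ssrp1-2 minus spt16-1 was 1.11, or 2.16-fold. Each of these differences was many times the spread between arrays of 1 genotype. Only 1 of the 28501 probe sets had a larger increase in ssrp1-2 against Col-0, 31 had a larger increase in spt16-1 against Col-0, and 18 had a larger one in ssrp1-2 against spt16-1. In a bulk sample, more cells with the transcript and more transcript per cell cannot be told apart.

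AT1G66090 varied far less. Its log2 values were 4.07, 3.91 and 4.03 on the ssrp1-2 arrays, 3.76, 3.73 and 3.35 on the spt16-1 arrays, and 3.76, 3.53 and 3.52 on the Col-0 arrays. The ssrp1-2 arrays lay above all 6 others, while the spt16-1 and Col-0 arrays overlapped. The means were 4.001 ± 0.08 in ssrp1-2, 3.61 ± 0.23 in spt16-1 and 3.60 ± 0.14 in Col-0 (SD, n = 3 each). The difference of ssrp1-2 minus Col-0 was 0.40 on the log2 scale (1.32-fold), that of ssrp1-2 minus spt16-1 was 0.39 (1.31-fold; 0.25 on the log2 scale without spt16-1 replicate 3), and that of spt16-1 minus Col-0 was 0.01. The differences of 0.40 and 0.39 are close in size to the range of the spt16-1 arrays, from 3.35 to 3.76, where replicate 3 lay lowest of all 9 arrays. In ssrp1-2 against Col-0, 1142 probe sets had a larger increase. Groups that do not overlap in the higher direction were common, at 9.37% of all probe sets for ssrp1-2 against Col-0, 8.53% for spt16-1 against Col-0 and 8.27% for ssrp1-2 against spt16-1.

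**Figure D1:**
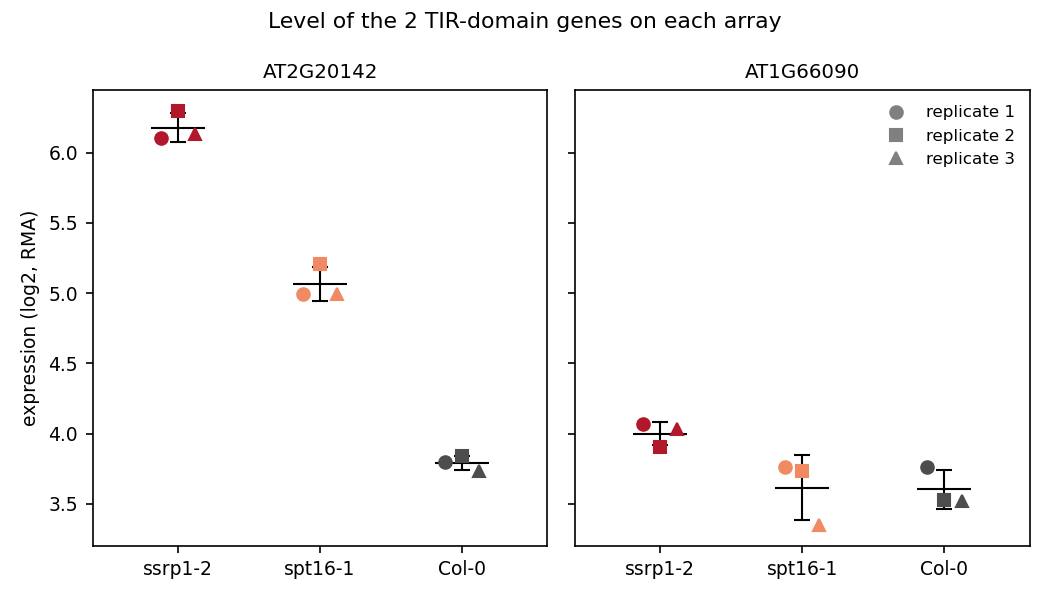
Log2 expression of AT2G20142 (left) and AT1G66090 (right) on each array, by genotype. Points are arrays with the shape giving the replicate number, bars are the mean and SD of 3 arrays, and the axis does not start at 0. AT2G20142 shows 3 separate levels, at means of 6.18, 5.06 and 3.79, while AT1G66090 lies between 3.35 and 4.07 on all arrays.

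A probe set passed a comparison when limma's adjusted p (Benjamini-Hochberg over all 28501 probe sets) was under 0.05. AT2G20142 was among the probe sets that passed in each of the 3 comparisons and AT1G66090 in none. The share of all probe sets that passed was 2.58% for ssrp1-2 against Col-0, 2.02% for spt16-1 against Col-0 and 0.835% for ssrp1-2 against spt16-1. Because the genes were chosen on these values, nothing is read from this count. The lowest 25% of probe set means lay below 3.13 on the log2 scale. Both genes were above that value in Col-0, and the files give no detection call, so how far the Col-0 signal stood above background is not known.

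Some other TIR-domain genes rose in ssrp1-2 against Col-0. A list of 65 such genes was written from general knowledge of the family, without the 2 genes above. It was chosen with earlier results of these data known, so it is not independent of them. Of the 65, 49 had a named probe set, and 13 of these had an average in the lowest 25% of probe sets. In ssrp1-2 against Col-0, 8 of the 49 rose and 0 fell, or 16.3%, while 1.74% of all probe sets rose and 0.839% fell. The difference was above 0 for 31 of the 49 and for 14209 of all 28501 probe sets. The median difference was 0.11 on the log2 scale, against 0.00 over all probe sets, and the range was -0.74 to 1.28. In spt16-1 against Col-0, 0 of the 49 passed by limma and 0 in the unmoderated test. Of all probe sets, 1.21% rose and 0.807% fell there. The unadjusted p was under 0.05 for 9 of the 49 and for 3599 of all 28501 probe sets. The median was 0.02 against -0.01 over all probe sets. In ssrp1-2 against spt16-1, 2 of the 49 were higher in ssrp1-2 and 0 lower, or 4.08%, while 0.519% of all probe sets were higher and 0.316% lower. The median was 0.10 against 0.01. The count for ssrp1-2 against Col-0 was 3 to 8 when any 1 of the 9 arrays was left out, and 2 of the 8 kept their call without each array in turn.

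**Figure D2:**
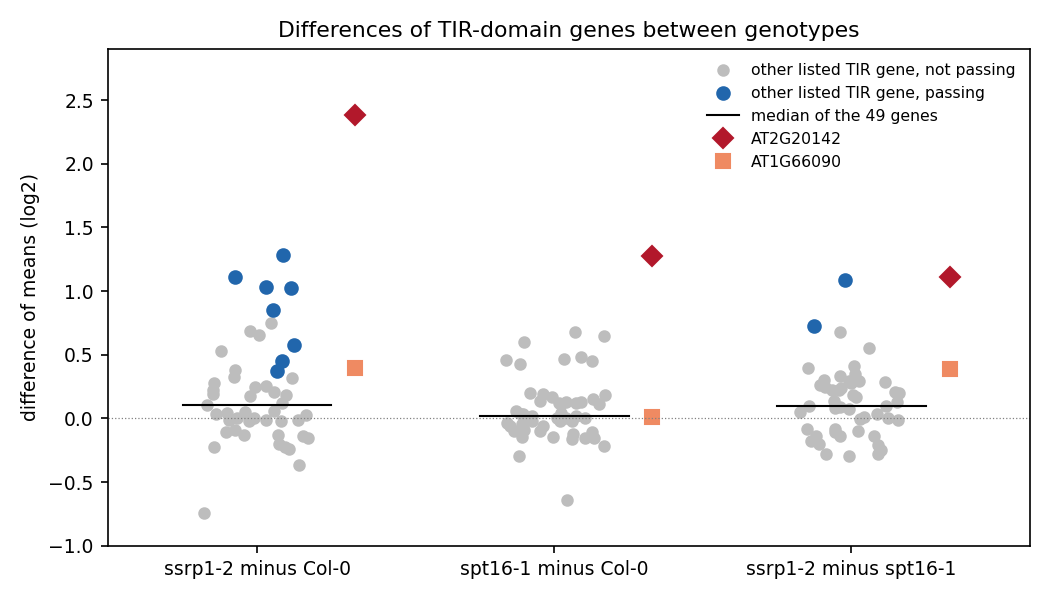
Difference of means on the log2 scale in the 3 comparisons for AT2G20142 and AT1G66090 and for the 49 other measured TIR-domain genes, each a point, with the median of the 49 as a line. Blue points passed limma's threshold: 8 in ssrp1-2 minus Col-0, 0 in spt16-1 minus Col-0 and 2 in ssrp1-2 minus spt16-1. AT2G20142 lies above all 49 in each comparison, but it was chosen with these levels known, so nothing is read from its place.

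AT5G41750 and AT5G41740 were the 2 that kept their call in ssrp1-2 against Col-0 without any 1 array, although AT5G41740 lost it in the unmoderated test (adjusted p = 0.0516). AT5G41750 had 4.70, 5.05 and 4.63 in ssrp1-2, 4.24, 4.20 and 3.90 in spt16-1, and 3.54, 3.45 and 3.54 in Col-0 on the log2 scale. The 3 genotypes were separate and in the same order as for AT2G20142, an order that selection by ssrp1-2 against Col-0 favours. It rose by 1.28 ± 0.13 (SE) in ssrp1-2 against Col-0, or 2.43-fold (limma, adjusted p = 0.00129). In spt16-1 against Col-0 its difference was 0.60 (limma, adjusted p = 0.0558) and in ssrp1-2 against spt16-1 it was 0.68 (limma, adjusted p = 0.0577), so neither passed.

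AT5G41740 had 7.27, 7.36 and 7.33 in ssrp1-2, 6.17, 6.57 and 5.95 in spt16-1, and 6.47, 6.09 and 6.07 in Col-0. Only the ssrp1-2 arrays stood apart here, and spt16-1 overlapped Col-0, which is the order seen for AT1G66090. It rose by 1.11 ± 0.16 (SE) in ssrp1-2 against Col-0 (limma, adjusted p = 0.00872) and was higher in ssrp1-2 than in spt16-1 by 1.09 ± 0.16 (limma, adjusted p = 0.0229). The call between the mutants was lost without any 1 of the 3 ssrp1-2 arrays or without spt16-1 replicate 1 or 3 (adjusted p up to 0.0935). AT5G41740 and AT5G41750 carry consecutive locus numbers, and probes shared between related copies would make their separate values uncertain.

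AT5G58120 showed the same shape at a smaller size. It had 6.63, 6.70 and 6.70 in ssrp1-2, 5.92, 5.82 and 6.12 in spt16-1, and 6.23, 5.91 and 6.17 in Col-0. It rose by 0.58 in ssrp1-2 against Col-0 (limma, adjusted p = 0.0270) and was higher by 0.72 in ssrp1-2 than in spt16-1 (limma, adjusted p = 0.0229), while spt16-1 minus Col-0 was -0.15 (limma, adjusted p = 0.646). Neither of its calls was stable to the loss of 1 array. The first was lost without any 1 ssrp1-2 array, Col-0 replicate 2 or 3 or spt16-1 replicate 1 (adjusted p up to 0.0904). The second was lost without any 1 ssrp1-2 array or spt16-1 replicate 1 or 2 (adjusted p up to 0.0924).

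The other 5 that rose in ssrp1-2 had spt16-1 means between those of ssrp1-2 and Col-0. Their selection by ssrp1-2 against Col-0 favours such an order, so nothing is read from it. AT3G04210 averaged 7.02 ± 0.09 in ssrp1-2, 6.62 ± 0.04 in spt16-1 and 6.17 ± 0.31 in Col-0 (SD, n = 3 each; limma, adjusted p = 0.0158 for ssrp1-2 against Col-0). AT1G63880 averaged 7.73 ± 0.08, 7.47 ± 0.02 and 7.28 ± 0.11 in ssrp1-2, spt16-1 and Col-0 (limma, adjusted p = 0.0190). AT5G46450 rose by 0.38 (limma, adjusted p = 0.0331), AT5G46490 by 1.02 (limma, adjusted p = 0.0482) and AT1G51270 by 1.03 (limma, adjusted p = 0.0374). In Col-0, AT1G51270 averaged 2.88, within the lowest 25% of probe sets. None of the 5 passed in spt16-1 against Col-0 or between the mutants. Their calls were lost without 2 of the 9 arrays for AT3G04210 (ssrp1-2 replicates 2 and 3, adjusted p up to 0.0638) and 4 for AT1G63880 (Col-0 replicates 2 and 3, ssrp1-2 replicates 1 and 2, up to 0.0624). They were lost without 7 arrays each for AT5G46450 (all but spt16-1 replicate 1 and ssrp1-2 replicate 2, up to 0.107), AT5G46490 (all but Col-0 replicate 3 and spt16-1 replicate 1, up to 0.143) and AT1G51270 (all but ssrp1-2 replicate 2 and spt16-1 replicate 1, up to 0.127).

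**Figure D3:**
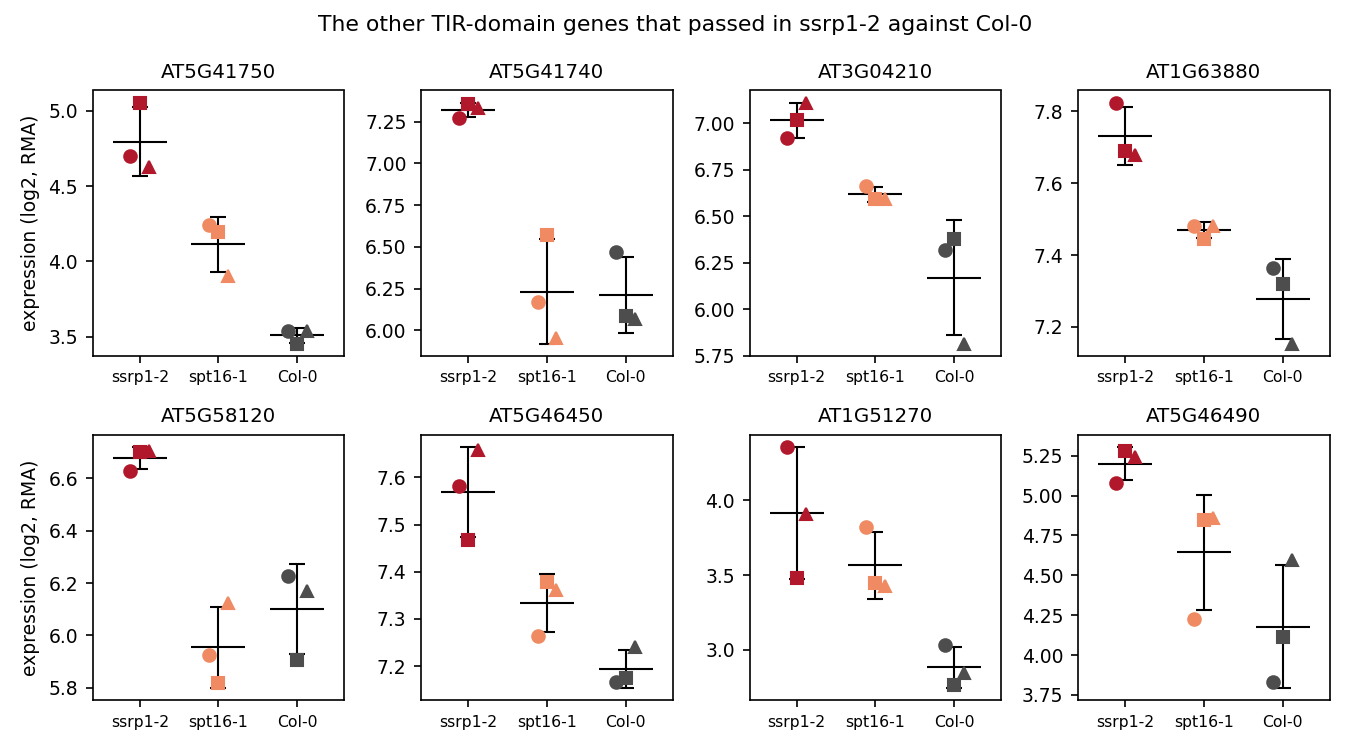
Log2 expression of the 8 other TIR-domain genes that passed in ssrp1-2 against Col-0, on each array by genotype, with mean and SD of 3 arrays (circle, square and triangle are replicates 1, 2 and 3; each panel has its own axis, which does not start at 0). In all 8 the ssrp1-2 arrays lie above the Col-0 arrays, which their selection by this comparison favours, so nothing is read from it. The same held for 17 of the 49 measured TIR-domain genes and for 9.37% of all probe sets. AT5G41740, AT5G58120 and AT5G46490 have spt16-1 arrays that overlap Col-0.

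Genes that act with TIR-domain proteins were sparsely covered, with 10 of 58 listed immune pathway genes measured. In ssrp1-2 against Col-0, 3 of the 10 rose and 0 fell, while 1.74% of all probe sets rose and 0.839% fell. The median difference of the 10 was 0.35 on the log2 scale, against 0.00 over all probe sets. In spt16-1 against Col-0 and in ssrp1-2 against spt16-1, 0 passed by limma and 0 in the unmoderated test of either comparison. The unadjusted p was under 0.05 for 3 and 4 of the 10, and for 3599 and 3427 of all 28501 probe sets. The medians were 0.17 and 0.18. Among the 4 listed EDS1 module genes, SAG101, the lipase-like partner of EDS1, had 5.21, 5.31 and 5.27 in ssrp1-2, 4.88, 5.10 and 5.15 in spt16-1, and 4.85, 4.69 and 4.90 in Col-0. It rose by 0.45 in ssrp1-2 against Col-0 (limma, adjusted p = 0.0373). AT3G48080, the other measured gene of that list, had 0.25 in the same comparison and did not pass, with means of 2.83 in ssrp1-2 and 2.58 in Col-0 that lie in the lowest 25% of probe sets. PAD4 was not analysed here, and no gene of that list beyond these 2 was measured.

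Of the 6 listed helper receptor genes, 3 were measured and 0 passed by limma in any comparison. The unadjusted p was under 0.05 for 2 in ssrp1-2 against Col-0, 0 in spt16-1 against Col-0 and 1 in ssrp1-2 against spt16-1. Over all 28501 probe sets, 4108, 3599 and 3427 had such a p in these comparisons. AT5G66910 had 0.58 and AT5G66890 -0.33 in ssrp1-2 against Col-0 (limma, adjusted p = 0.242 and 0.221). AT5G66900, the third, had -0.05 (limma, adjusted p = 0.901), and AT5G66890 lay in the lowest 25% of probe sets. Their locus numbers are consecutive, so their separate values are uncertain where probes are shared. SGT1A, a co-chaperone of such receptors and the 1 measured gene of its list, had 0.52 (limma, adjusted p = 0.145). UGT76B1, a glucosyltransferase that acts on salicylic acid and related immune metabolites, was the 1 measured gene of 13 in the salicylic acid and pipecolate list and had 0.11 (limma, adjusted p = 0.792). Of the 8 listed salicylic acid response genes, 0 were measured, so defence output of that kind was not analysed here.

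From pattern-triggered immunity, the surface receptor branch, 3 of 22 listed genes were measured. BIK1, a cytoplasmic kinase that acts downstream of surface receptors, averaged 7.01 ± 0.03 in ssrp1-2, 6.78 ± 0.06 in spt16-1 and 6.49 ± 0.15 in Col-0 (SD, n = 3 each), and it rose by 0.51 in ssrp1-2 against Col-0 (limma, adjusted p = 0.0171). WRKY29, a transcription factor of flagellin signalling, averaged 5.62 ± 0.12 in ssrp1-2, 5.42 ± 0.01 in spt16-1 and 5.05 ± 0.21 in Col-0 (SD, n = 3 each), and it rose by 0.58 (limma, adjusted p = 0.0314). EFR, the receptor of bacterial elongation factor Tu, had -0.17 (limma, adjusted p = 0.736). The calls of SAG101, BIK1 and WRKY29 were each lost without at least 5 of the 9 arrays, with adjusted p up to 0.120, 0.0693 and 0.112. The number that passed was 0 to 2 without any 1 array, so these calls were not stable to the loss of 1 array. BIK1 lost its call without any 1 ssrp1-2 array or Col-0 replicate 2 or 3. SAG101 kept its call only without spt16-1 replicate 1 or 3, and WRKY29 only without Col-0 replicate 2 or ssrp1-2 replicate 1.

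Of 10 listed genes that respond quickly to touch and wounding, 3 were measured, and 2 of them, STZ and CML38, rose in ssrp1-2 against Col-0, where 1.74% of all probe sets rose. STZ, a zinc-finger transcription factor of stress responses, had 7.88, 8.01 and 8.05 in ssrp1-2, 7.11, 7.35 and 6.95 in spt16-1, and 5.74, 6.02 and 5.998 in Col-0. The 3 genotypes were separate and in the order of AT2G20142. STZ rose by 2.06 in ssrp1-2 against Col-0 (limma, adjusted p = 1.04e-04) and by 1.22 in spt16-1 against Col-0 (limma, adjusted p = 0.00134). It was higher by 0.84 in ssrp1-2 than in spt16-1 (limma, adjusted p = 0.0178), but leaving out ssrp1-2 replicate 2, ssrp1-2 replicate 3, spt16-1 replicate 1 or spt16-1 replicate 3 ended that call, with a highest adjusted p of 0.0821 by limma. CML38, a calmodulin-like protein gene, averaged 4.71 ± 0.23 in ssrp1-2, 3.70 ± 0.51 in spt16-1 and 3.03 ± 0.28 in Col-0 (SD, n = 3 each). It rose by 1.69 in ssrp1-2 against Col-0 (limma, adjusted p = 0.00939), but not past the threshold in the unmoderated test (adjusted p = 0.0602), and its Col-0 mean lay in the lowest 25% of probe sets. CML37, the third measured gene, had -0.06 (limma, adjusted p = 0.839) and lay in the lowest 25% of probe sets. The part of a handling or wound response in the levels of AT2G20142 and AT1G66090 was not tested.

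The genes beside AT2G20142 on chromosome 2 differed little between genotypes, although AT2G20070, AT2G20170 and AT2G20208 averaged in the lowest 25% of probe sets. Of the 5 measured genes nearest on each side in the order of the RefSeq annotation, at most 8 genes away, 0 of 10 passed in any comparison by limma, and 0 had an unadjusted p under 0.05. Of all probe sets, 2.58% passed in ssrp1-2 against Col-0, 2.02% in spt16-1 against Col-0 and 0.835% in ssrp1-2 against spt16-1. An unadjusted p under 0.05 was found there for 4108, 3599 and 3427 of all 28501 probe sets. Nothing is read from these counts. Their differences ran from -0.08 to 0.15 in ssrp1-2 against Col-0, and from -0.10 to 0.27 in spt16-1 against Col-0, while AT2G20142 had 2.39 and 1.27. The adjacent gene AT2G20150 averaged 3.62 in ssrp1-2, 3.74 in spt16-1 and 3.46 in Col-0.

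Around AT1G66090 on chromosome 1, 1 of 10 measured neighbours rose in ssrp1-2 against Col-0, where 1.74% of all probe sets rose. An unadjusted p under 0.05 was found for 3 of the 10 in ssrp1-2 against Col-0, 1 in spt16-1 against Col-0 and 2 in ssrp1-2 against spt16-1. Over all 28501 probe sets, 4108, 3599 and 3427 had such a p in these comparisons, so nothing is read from these counts. The gene that rose was AT1G66180, which lies 12 genes away and had 7.55, 7.73 and 7.44 in ssrp1-2, 6.57, 6.87 and 6.75 in spt16-1, and 6.87, 6.63 and 6.70 in Col-0. It rose by 0.84 ± 0.11 (SE) in ssrp1-2 against Col-0 (limma, adjusted p = 0.00536) and was higher by 0.84 in ssrp1-2 than in spt16-1 (limma, adjusted p = 0.0129), with spt16-1 overlapping Col-0. The call between the mutants ended when spt16-1 replicate 1, spt16-1 replicate 3 or ssrp1-2 replicate 2 was left out (limma, adjusted p up to 0.0592), and in the unmoderated test (adjusted p = 0.0606) and the fit of the 2 genotypes alone (adjusted p = 0.0609). The adjacent gene AT1G66080 had 0.12 and 0.11 in ssrp1-2 and spt16-1 against Col-0 (limma, adjusted p = 0.724 and 0.786), and no other neighbour passed in any comparison. Of these neighbours, AT1G66020, AT1G66045, AT1G66060, AT1G66110 and AT1G66145 averaged in the lowest 25% of probe sets.

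**Figure D4:**
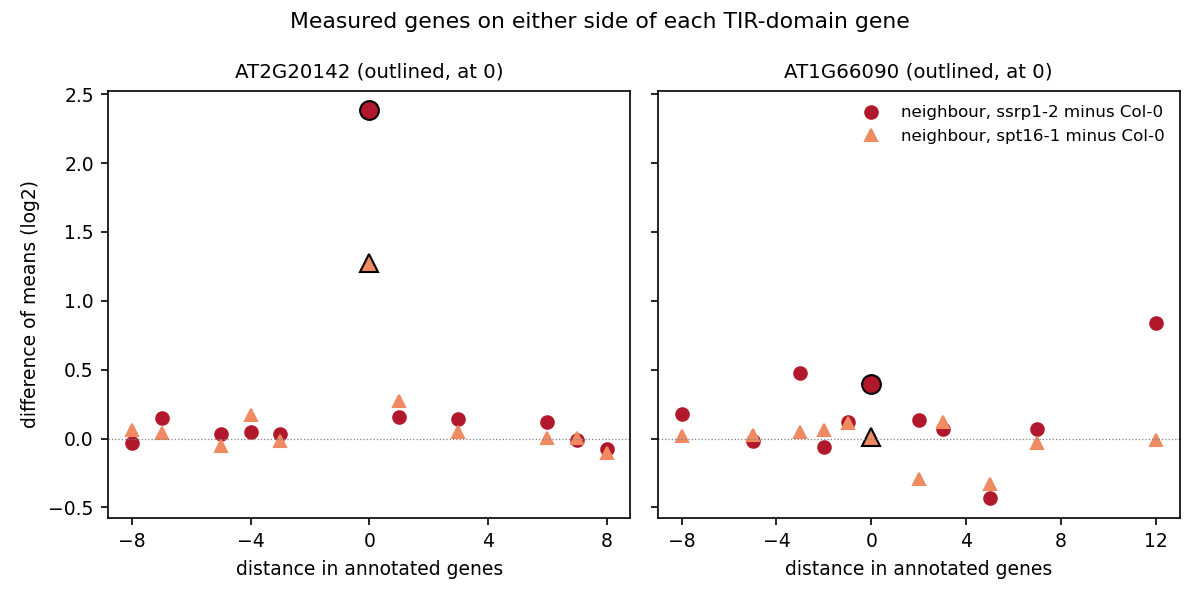
Difference of means on the log2 scale against Col-0 for AT2G20142 and AT1G66090 (outlined, at distance 0) and for the 5 measured genes nearest on each side, by distance in annotated genes; circles are ssrp1-2 minus Col-0 and triangles spt16-1 minus Col-0. The neighbours of AT2G20142 stay between -0.10 and 0.27, and on the right AT1G66180, at 12 genes, reaches 0.84.

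The genes most like each TIR-domain gene were taken by Pearson r over the 9 arrays, among 1554 probe sets (1555 for AT1G66090) of 1 gene with a range of at least 1 on the log2 scale. These correlations describe arrays that fall into genotype groups and share a normalization. The 6 genes most like AT2G20142 were STZ (r = 0.990), AT1G24530 (0.984), AT3G59350 (0.982), AT2G24600 (0.982), AT1G25400 (0.982) and AT3G15630 (0.975). All 6 were in the same order, with ssrp1-2 highest and spt16-1 between. As they were picked by r over these same arrays, nothing is read from that order. STZ was also nearest by distance between the profiles, with 2.06 in ssrp1-2 and 1.22 in spt16-1 against Col-0, beside 2.39 and 1.27 for AT2G20142. By distance in place of r, STZ, AT2G24600 and AT1G25400 were again among the 6.

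AT1G66090 ranged over 0.72 on the log2 scale, less than the minimum set for the genes compared with it, and its matches were weaker. They were AT5G19240 (r = 0.921), AT1G24145 (0.920), the TIR-domain gene AT5G41740 (0.909), AT3G05935 (0.869), AT5G24210 (0.867) and AGL93 (0.863). In all 6 the ssrp1-2 mean was highest, and the differences of spt16-1 minus Col-0 lay between -0.25 and 0.09. Their selection by r favours such an order, so nothing is read from it. AGL93 averaged in the lowest 25% of probe sets. Only AT3G05935 was also among the 6 nearest by distance. Among the 49 other TIR-domain genes, AT5G41750 was most like AT2G20142 (r = 0.973) and AT5G41740 most like AT1G66090 (r = 0.909), while r between AT2G20142 and AT1G66090 themselves was 0.701.

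**Figure D5:**
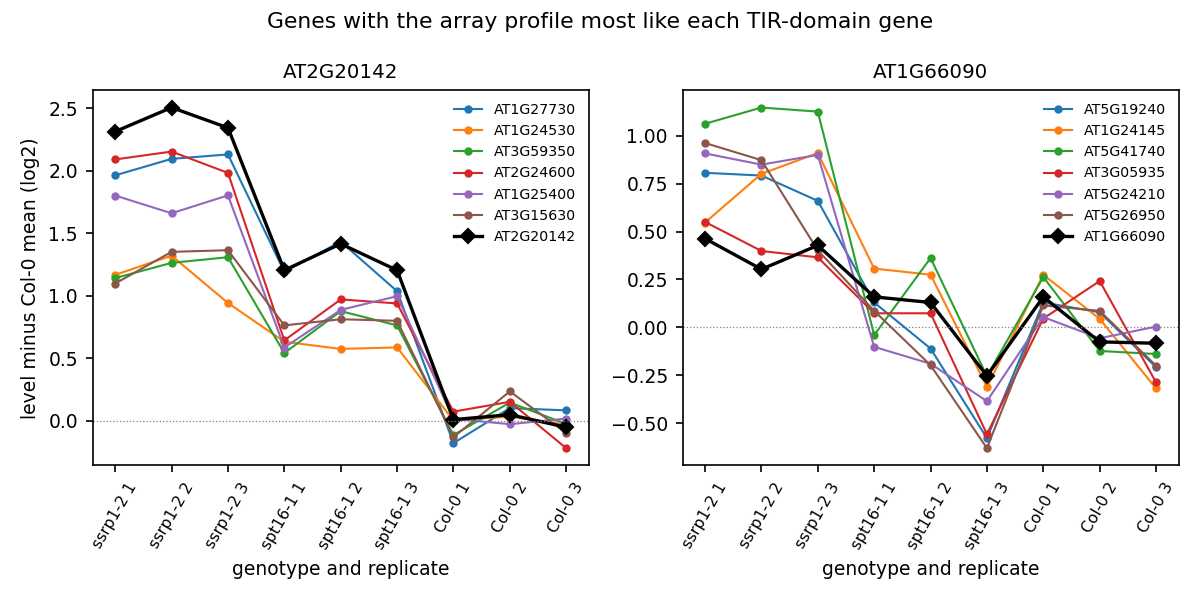
Log2 level minus the Col-0 mean on each of the 9 arrays for AT2G20142 (left) and AT1G66090 (right), in black, and for the 6 genes with the highest Pearson r to each (AT1G27730 is STZ and AT5G26950 is AGL93; the panels have different axes, and lines join arrays only to make a profile visible). On the left all profiles step down from ssrp1-2 to spt16-1 to Col-0, and on the right spt16-1 and Col-0 overlap in every profile but that of AT5G24210, whose spt16-1 arrays lie below Col-0.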

How the data were processed

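The authors deposited a log2 value for every probe set on every array. Per the submitters' processing notes, Affymetrix Expression Console 1.3 and RMA were used. RMA corrects background, equalises the arrays' distributions and combines probes, so a change in total RNA would not show. GEO's platform annotation gave 16722 probe sets 1 gene, 759 several and 11020 none; 16574 of the first matched RefSeq (TAIR10.1), used for names and gene order only, since the probes' build is not named. Sequences were not used.

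One linear model over all 9 arrays was fitted in limma 3.58.1 (R 4.3.3; two-sided tests), with 6 residual degrees of freedom. Errors are SDs over 3 arrays or, where marked, SEs; the number of arrays limits the precision. The fit was tested on simulated data.

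The genes and lists were chosen with earlier results of these data known. Named genes are the 2 genes, listed genes that passed or had the 2 smallest p of their list, the 5 measured neighbours on each side and the 6 most similar profiles. EFR, AT5G66900, CML37 and the marker genes are named outside that rule, to complete short lists after their values were seen. Closest relatives by protein sequence were not determined. Alternatives were an intensity trend, robust moderation, 2 scalings, a filter on the lowest 25%, fits of 2 genotypes, an unmoderated test, a replicate block and leaving out each array.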

Additional observations from a re-analysis of the deposited data

Results flagged for a closer look

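For 2 TIR-domain genes of the list, ssrp1-2 and spt16-1 differed by the direct test between the mutants, whose differences against Col-0 share the same 3 Col-0 arrays. AT5G41740 was higher by 1.09 on the log2 scale (7.32 ± 0.04 in ssrp1-2 and 6.23 ± 0.31 in spt16-1; SD, n = 3 each; limma, adjusted p = 0.0229). AT5G58120 was higher by 0.72 (6.68 ± 0.04 in ssrp1-2 and 5.95 ± 0.16 in spt16-1; SD, n = 3 each; limma, adjusted p = 0.0229). Both calls were lost without single arrays, as given above.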

How the results depend on the processing

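Under all 72 combinations of comparison and alternative, the differences of AT2G20142 and AT1G66090 moved by less than the larger SD of the genotypes compared. Combinations with the replicate block, or without an array of the genotype outside the comparison, could not move a difference of means. Leaving out 1 of the 3 arrays of a genotype compared cannot move its mean by as much as its SD. Only the 2 scalings, median centring and quantile scaling, could therefore have gone past this limit. Leaving out 1 array gave AT2G20142 2.33 to 2.42 (ssrp1-2 minus Col-0), 1.202 to 1.31 (spt16-1 minus Col-0) and 1.05 to 1.18 (ssrp1-2 minus spt16-1), and AT1G66090 0.36 to 0.48, -0.06 to 0.14 and 0.25 to 0.46. Without spt16-1 replicate 3, AT1G66090 had 0.25 in ssrp1-2 minus spt16-1, against 0.39 with all arrays. The 8 TIR-domain genes that passed in ssrp1-2 against Col-0 became 2 in the fit of the 2 genotypes alone, 3 in the unmoderated test and 3 to 8 without 1 array. The count of 0 in spt16-1 against Col-0 became 1 with the filter on the lowest 25%, 1 with the intensity trend and 0 to 1 without 1 array. The 2 in ssrp1-2 against spt16-1 became 0 in the fit of the 2 genotypes alone, 0 in the unmoderated test and 0 to 2 without 1 array. The 3 immune pathway genes in ssrp1-2 against Col-0 became 0 in the fit of the 2 genotypes alone, 1 in the unmoderated test and 0 to 2 without 1 array. The fits of 2 genotypes and those without 1 array use fewer arrays. The cause of the moves under the other alternatives was not tested. With the replicate number as a block, the TIR-domain counts were 7, 0 and 1 in the 3 comparisons. Deviations of same-numbered arrays correlated at -0.135 to 0.069, so the numbers were not taken as pairs. By distance in place of r, 3 of the 6 genes most like AT2G20142 and 1 of the 6 most like AT1G66090 were the same. Signal over background was not available.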

Other observations

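Exactly equal values on different arrays were frequent. AT2G20142 had the same value to 6 decimals on spt16-1 replicates 1 and 3, and AT1G66090 on spt16-1 replicate 1 and Col-0 replicate 1. In all, 59.3% of probe sets had a value shared to that precision by at least 2 of the 9 arrays. No other probe set had the same 9 values as either gene.

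AT2G20142 was highest on replicate 2 within each genotype, at 6.29 in ssrp1-2, 5.20 in spt16-1 and 3.84 in Col-0, by at most 0.21 on the log2 scale over the next array of the genotype. AT1G66090 was highest on replicate 1 within each genotype, at 4.07 in ssrp1-2 and 3.76 in both spt16-1 and Col-0, by 0.04, 0.03 and 0.23 over the next array in ssrp1-2, spt16-1 and Col-0. The labels do not say that a replicate number marks a shared sowing or day.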
